A study of Mus musculus with 9 samples.

Results

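The genes described here encode the machinery that burns fatty acids in mitochondria and peroxisomes: the carnitine shuttle, the acyl-CoA dehydrogenases and oxidases, the hydratases and thiolases, the enzymes that handle double bonds, the electron transfer flavoproteins and a few regulators and carriers. The set is a list of 36 gene symbols. Of these, 35 had a probe set annotated to that gene alone, and all 35 were among the 17740 genes tested out of 22180 measured. Acsl1, which activates long-chain fatty acids to acyl-CoA, had no such probe set and has no value here. Of the measured genes 20 encode mitochondrial proteins, 10 peroxisomal proteins, and 5 proteins of both or of other places (Crat, Acad11, Eci2, Ech1 and Fabp1).

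RNA came from the kidneys of 20-week-old male mice of the C57BLKS/J strain, described in the study's design as renal cortex, and was hybridised to Affymetrix arrays. The db/db+TSF mice were db/db mice that received TSF (Tang-shen Formula, a traditional Chinese mixture of herbs) at 2.4 g/kg/day by gavage into the stomach for 12 weeks. The db/db mice, whose leptin receptor alleles are both mutant in every cell and which become obese and diabetic, were given saline over that time. The db/m mice carry 1 mutant and 1 normal leptin receptor allele and are lean; no treatment is stated for them. Each group had 3 arrays, labelled as separate biological replicates, from groups of 9 mice in the case of the db/db+TSF and db/db animals.

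Fatty acids are the main fuel of the proximal tubule, the segment that makes up most of the cortex. Long-chain acyl groups cross the inner mitochondrial membrane as carnitine esters and are shortened in cycles of dehydrogenation, hydration, a second dehydrogenation and thiolysis, each of which yields acetyl-CoA. Peroxisomes run a parallel pathway for very long, branched and dicarboxylic acids, in which an oxidase replaces the first dehydrogenase, and export shortened chains to mitochondria as carnitine esters. Many genes of both pathways are targets of the nuclear receptor PPAR alpha, which binds with its partner RXR to a direct repeat of a hormone response half-site with 1 base between the repeats.

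Values are the deposited intensities on the scale log2(intensity + 1), and differences are log2 fold changes on that scale. Each adjusted p-value is from limma with Benjamini-Hochberg adjustment over all 17740 genes tested, and a gene is said to have risen or fallen where it was at most 0.05. The median intensity of an array ran from 10.3 to 11.2 units. The proximal tubule markers, which check the labelled tissue, summed to 48410.3 to 48769.1 intensity units in db/db+TSF kidneys, 45638.2 to 48427.6 in db/db kidneys and 45629.7 to 48758.4 in db/m kidneys (23 genes measured). The 13 distal nephron markers, from Henle's loop onward, summed to 12679.1 to 13608.7 in db/db+TSF kidneys and 12400 to 13296.6 in db/db kidneys, above the 10221.3 to 11067.9 of db/m kidneys. In bulk tissue, fewer cells of a type and less RNA per cell cannot be told apart.

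Promoter sequence is shown for 4 genes: Crot and Ehhadh, the peroxisomal genes with the smallest p-values in db/db against db/m kidneys, Pdk4, the gene with the largest difference under TSF, and Fabp1, the only gene of the set with a match to the repeat. The 250 bases before each annotated start are given 5′ to 3′ on the gene's strand, from RefSeq on GRCm38.p6, and capitals mark the match.
Crot, chr5:8997147-8997396, minus strand: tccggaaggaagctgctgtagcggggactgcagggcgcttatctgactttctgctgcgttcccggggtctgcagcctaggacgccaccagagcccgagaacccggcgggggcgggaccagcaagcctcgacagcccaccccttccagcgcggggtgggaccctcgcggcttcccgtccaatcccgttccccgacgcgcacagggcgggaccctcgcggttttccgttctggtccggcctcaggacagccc
Ehhadh, chr16:21787835-21788084, minus strand: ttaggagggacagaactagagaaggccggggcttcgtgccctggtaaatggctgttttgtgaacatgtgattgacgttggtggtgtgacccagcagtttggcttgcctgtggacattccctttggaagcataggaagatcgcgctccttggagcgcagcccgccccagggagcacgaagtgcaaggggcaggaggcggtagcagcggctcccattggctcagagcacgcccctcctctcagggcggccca
Pdk4, chr6:5496279-5496528, minus strand: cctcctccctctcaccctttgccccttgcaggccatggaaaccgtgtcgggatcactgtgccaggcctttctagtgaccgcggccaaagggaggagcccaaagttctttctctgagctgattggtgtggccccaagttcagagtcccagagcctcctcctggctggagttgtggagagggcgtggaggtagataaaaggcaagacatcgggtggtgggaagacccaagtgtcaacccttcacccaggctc
Fabp1, chr6:71199629-71199878, plus strand: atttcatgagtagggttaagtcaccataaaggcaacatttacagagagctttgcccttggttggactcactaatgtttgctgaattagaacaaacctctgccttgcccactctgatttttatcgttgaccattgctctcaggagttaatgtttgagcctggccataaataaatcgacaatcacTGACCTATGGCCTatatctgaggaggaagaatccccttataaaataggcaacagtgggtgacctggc

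The motif searched was 2 copies of AGGNCA with any 1 base between them, on both strands. It stood in 111 of 32851 promoters of that length (0.338%) and in 1 of the 31 fatty acid oxidation genes with an entry, Fabp1, where it lay on the opposite strand. A match is a description of the letters, and no match says only that these letters were absent from this window.

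Whether the diabetic kidney differed from the lean one, and whether TSF treatment moved these genes, were the questions the design poses. In db/db against db/m kidneys none of the 35 genes passed the threshold, where 1.05% of all tested genes did (0.592% higher and 0.462% lower). At an unadjusted p under 0.05 there were 7 of 35 (20%), against 13.9% of all genes. Of the 7, 3 were higher and 4 lower, against 8.15% and 5.79% of all genes. The db/db and db/m arrays did not overlap for 10 of the 35 genes, 5 higher and 5 lower (28.6%), against 18.6% of all genes (10.4% higher and 8.28% lower). By sign, 14 genes were above 0 and 21 below, where 52.2% of all genes were above and 47.8% below. The median difference was -0.05 over the set and 0.01 over all genes.

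None of the 35 passed in db/db+TSF against db/db kidneys, and no gene on the array did (0%). At an unadjusted p under 0.05 there were 2 of 35 (5.71%), Pdk4 and Slc25a20, both higher, against 11.7% of all genes (4.98% higher and 6.74% lower). The groups did not overlap for 6 genes, 5 of them higher (Abcd3, Acad11, Hsd17b4, Acot2 and Pex11a) and 1 lower (Acat1), or 17.1% against 20.1% of all genes (7.81% higher and 12.3% lower). Above 0 were 15 genes and below it 20, where 43.9% of all genes were above and 56.1% below. The median difference was -0.04, beside -0.02 over all genes. The smallest adjusted p in the set was 0.382, for Pdk4.

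Against db/m kidneys 2 of the 35 genes passed in db/db+TSF kidneys, Crot and Acat1, both lower, where 3.13% of all tested genes passed (1.22% higher and 1.92% lower). At an unadjusted p under 0.05 there were 7 of 35 (20%), 3 higher and 4 lower, against 17.2% of all genes (7.56% higher and 9.63% lower). The arrays did not overlap for 11 genes, 6 higher and 5 lower (31.4%), against 22.1% of all genes (9.76% higher and 12.4% lower). By sign the set split into 18 above and 17 below 0, and all genes into 50% and 50%. The comparison shares its db/db+TSF arrays with the treatment comparison and its db/m arrays with the diabetes comparison, so the 3 sets of differences are not independent. No set test was run, and nothing particular to the set is read from these shares.

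**Figure D1:**
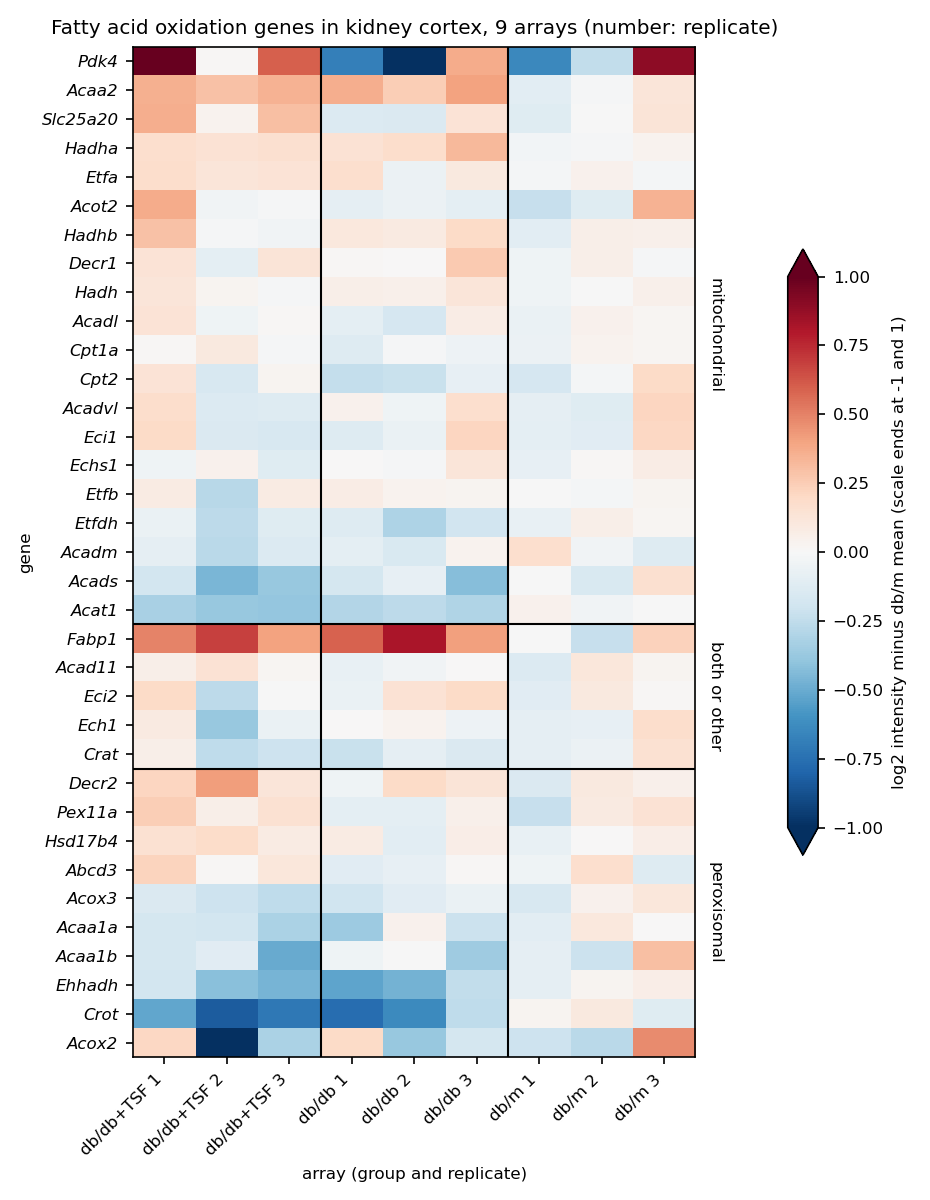
Log2 intensity of the 35 measured genes on each of the 9 arrays (columns, by group and replicate), minus the mean of that gene in db/m kidneys; rows are grouped by compartment. Crot, Ehhadh and Acat1 are below the db/m mean on all db/db+TSF and db/db arrays, and Acaa2, Hadha and Fabp1 above it on all of them.

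Crot had the smallest p of the set in db/db+TSF against db/m kidneys. It encodes carnitine octanoyltransferase, the peroxisomal enzyme that puts shortened chains on carnitine for export. Its log2 intensities were 9.75, 9.44 and 9.56 in db/db+TSF kidneys, 9.52, 9.64 and 10.02 in db/db kidneys and 10.31, 10.37 and 10.15 in db/m kidneys. All 6 db/db+TSF and db/db arrays lay below all 3 db/m arrays, and the treated and untreated db/db arrays overlapped. Against db/m kidneys Crot fell by 0.69 in db/db+TSF kidneys (SE 0.14, adjusted p 0.0239, 1.61-fold). In db/db kidneys it was lower by 1.46-fold, a difference of -0.55 (SE 0.14) that did not pass (adjusted p 0.0919). The difference between db/db+TSF and db/db kidneys was -0.14 (adjusted p 0.722).

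Whether Crot passed depended on single arrays, while its direction against db/m kidneys did not. With 1 array left out at a time the difference from db/m kidneys ran from -0.77 to -0.62 in db/db+TSF kidneys. In db/db kidneys it ran from -0.70 to -0.45. Without db/db replicate 3, the highest of the diabetic arrays, the db/db against db/m difference was -0.70 and passed (adjusted p 0.0394). The fall in db/db+TSF against db/m kidneys no longer passed without db/db+TSF replicate 2 (adjusted p 0.092) or replicate 3 (0.0865), or without db/m replicate 1 (0.0783) or replicate 2 (0.0708). That db/db array also carried more neutrophil transcripts: the 11 tested neutrophil markers summed to 808.122 intensity units there, against 131.05 to 131.872 on the other db/db arrays. The part of this difference in the result was not tested.

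No other measured gene of the carnitine shuttle passed the threshold in any comparison. Cpt1a, the outer-membrane carnitine palmitoyltransferase that sets the rate of mitochondrial entry, read 10.91, 10.99 and 10.88 in db/db+TSF kidneys, 10.77, 10.89 and 10.84 in db/db kidneys and 10.84, 10.93 and 10.92 in db/m kidneys. The 3 groups overlapped. The difference of db/db+TSF from db/db kidneys was 0.09, with a 95% interval of -0.09 to 0.28, and that of db/db from db/m kidneys was -0.06, with an interval of -0.25 to 0.12. The value for db/db+TSF against db/m kidneys, 0.03, turned to -0.0140 when arrays were scaled to a common median and to -0.00107 after quantile normalization.

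Slc25a20, the carnitine-acylcarnitine translocase of the inner membrane, read 8.43, 8.11 and 8.37 in db/db+TSF kidneys, against 7.93, 7.92 and 8.20 in db/db kidneys and 7.94, 8.07 and 8.19 in db/m kidneys. Of the treated arrays 2 lay above every other array and the remaining one among them. The difference of db/db+TSF from db/db kidneys was 0.28 (SE 0.12, adjusted p 0.405) and that of db/db from db/m kidneys -0.05 (adjusted p 0.885). Cpt2, which returns the acyl group to CoA inside mitochondria, averaged 10.24 ± 0.15 in db/db+TSF kidneys, 10.06 ± 0.09 in db/db kidneys and 10.24 ± 0.18 in db/m kidneys (SD, n = 3 each). Its differences of 0.18 under TSF and -0.18 in db/db against db/m kidneys did not pass (adjusted p 0.565 and 0.532).

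Crat, the acetyl-carrying carnitine acetyltransferase, averaged 10.10 in db/db+TSF kidneys, 10.08 in db/db kidneys and 10.23 in db/m kidneys. The db/db arrays lay below the db/m arrays, by 0.15 on average, but did not pass (adjusted p 0.578). Abcd3, a peroxisomal membrane transporter for acyl-CoA, averaged 10.05 in db/db+TSF kidneys, with every array above the db/db arrays, whose mean was 9.87 (difference 0.18, adjusted p 0.517). The lowest db/db+TSF array read 9.948, just above the highest db/db array at 9.942. Of the 6 measured genes of activation and the shuttle, all 6 were below 0 in db/db against db/m kidneys and 5 of 6 were above 0 in db/db+TSF against db/db kidneys. Both comparisons use the db/db arrays, so the opposite signs are not separate observations.

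**Figure D2:**
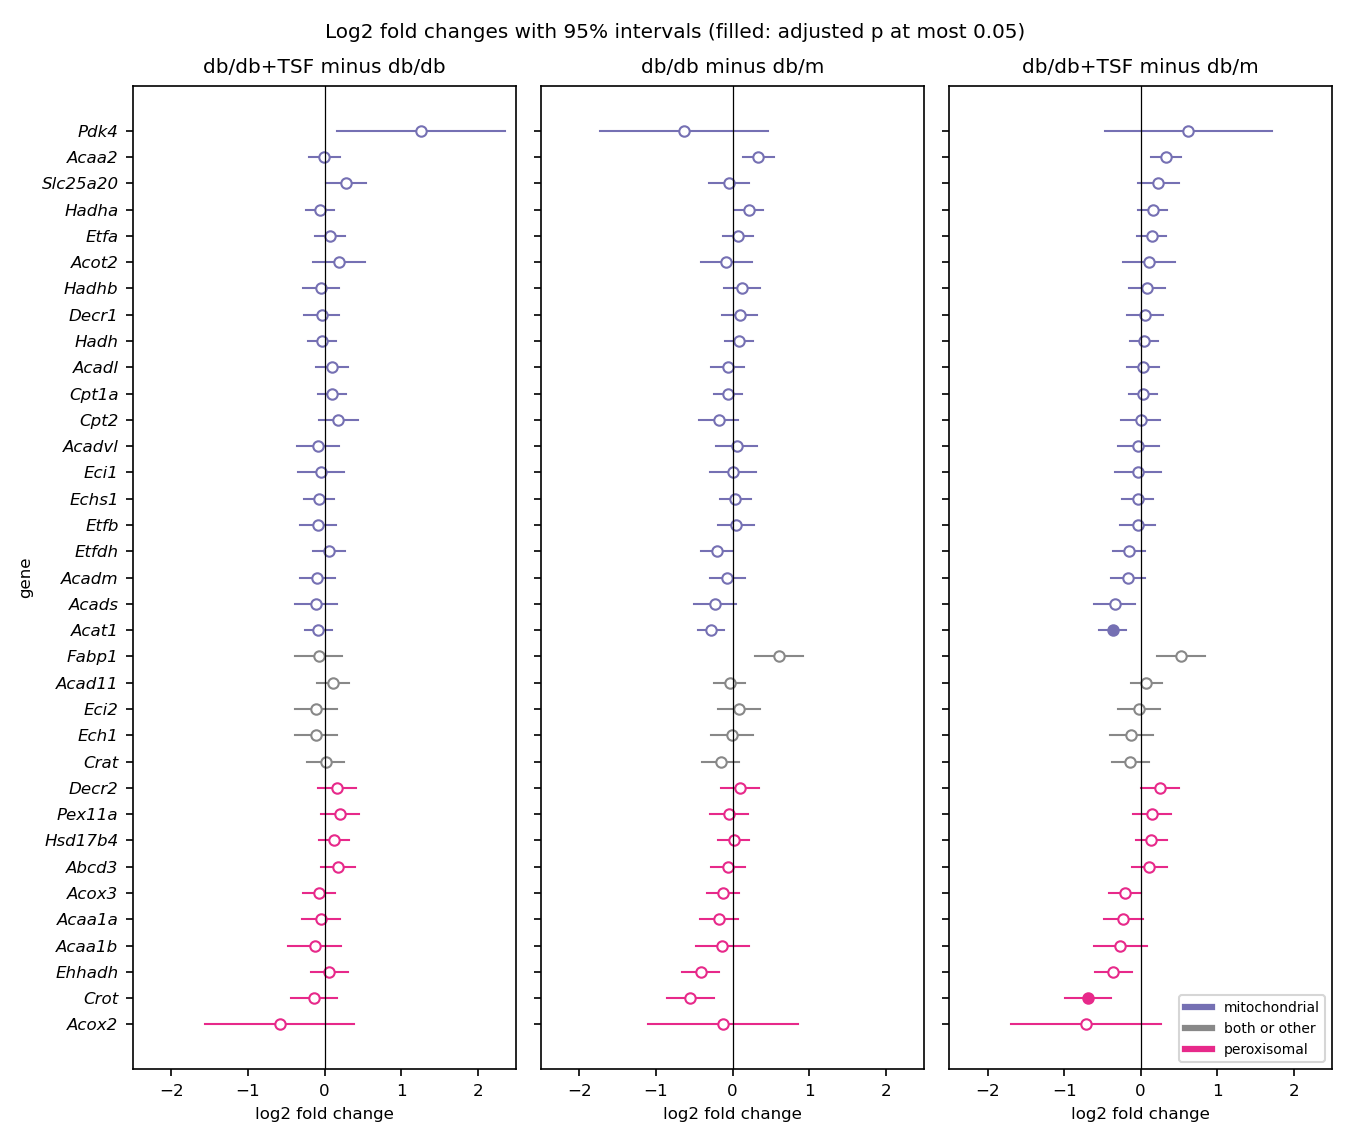
Log2 fold change (points) with 95% interval (lines) of the 35 genes in the 3 comparisons, coloured by compartment; filled points passed an adjusted p of 0.05. The only filled points are Crot and Acat1, in db/db+TSF minus db/m, and the widest intervals are those of Pdk4 and Acox2.

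The first step of the cycle, catalysed by acyl-CoA dehydrogenases in mitochondria and by acyl-CoA oxidases in peroxisomes, gave no gene past the threshold in any comparison (7 genes). Of all genes, 1.05% passed in db/db against db/m, 0% in db/db+TSF against db/db and 3.13% in db/db+TSF against db/m kidneys. Acadm, the medium-chain dehydrogenase, read 11.26, 11.08 and 11.21 in db/db+TSF kidneys, 11.25, 11.20 and 11.38 in db/db kidneys and 11.51, 11.31 and 11.22 in db/m kidneys. These values overlapped across all groups. The db/db minus db/m difference was -0.07 with a 95% interval of -0.30 to 0.16, and the db/db+TSF minus db/db difference was -0.09.

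Acads, the short-chain dehydrogenase, averaged 9.54 ± 0.14 in db/db+TSF kidneys, 9.66 ± 0.18 in db/db kidneys and 9.88 ± 0.16 in db/m kidneys (SD, n = 3 each). Every db/db+TSF array lay below every db/m array, and the difference of -0.34 (SE 0.12) did not pass (adjusted p 0.182). Acadl and Acadvl, the long-chain and very-long-chain dehydrogenases, differed by at most 0.10 in size between any pair of groups, with overlapping arrays. Acad11, which acts on longer chains, was higher in every db/db+TSF array than in every db/db array, by 0.11 (adjusted p 0.666).

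Acox2, the peroxisomal oxidase of branched chains and bile acid intermediates, varied widely between arrays. It read 8.45, 6.23 and 7.93 in db/db+TSF kidneys, 8.44, 7.87 and 8.07 in db/db kidneys and 8.04, 7.98 and 8.72 in db/m kidneys. One treated array, db/db+TSF replicate 2, was far below the other 8, so the mean difference of -0.59 (SE 0.45, adjusted p 0.632) rests on it. On the same array Slc7a13, a transporter of the last part of the proximal tubule and one of its 23 markers, read 6.27, against 8.54 and 9.29 on the other db/db+TSF arrays, 8.75 to 9.71 in db/db kidneys and 10.56 to 10.85 in db/m kidneys. Slc7a13 was the only one of the 23 to pass in db/db+TSF against db/m kidneys (adjusted p 0.0327), where 3.13% of all genes passed. On db/db+TSF replicate 2 the 23 markers summed to 48769.1 intensity units, against 48410.3 and 48412.5 on the other db/db+TSF arrays. Their mean log2 intensity was 10.43 there, against 10.59 and 10.63. The part of the Slc7a13 difference in the Acox2 value was not tested. Acox3, the other oxidase measured, averaged 8.83 in db/db+TSF kidneys, 8.91 in db/db kidneys and 9.03 in db/m kidneys (db/db+TSF minus db/m -0.20, adjusted p 0.321).

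The enzymes of hydration, second dehydrogenation and thiolysis held most of the genes whose groups did not overlap in the comparisons with db/m kidneys. In db/db against db/m kidneys 6 of these 10 genes had non-overlapping arrays, 4 higher (Acaa2, Hadha, Hadhb and Hadh) and 2 lower (Ehhadh and Acat1), against 18.6% of all genes (10.4% higher and 8.28% lower). The 4 that were higher all encode mitochondrial enzymes, as do Echs1 and Acat1 of this step, while Acaa1a, Acaa1b, Ehhadh and Hsd17b4 are peroxisomal. Of the 4, Hadhb was dim and differed by 0.13 (adjusted p 0.633), and Hadh differed by 0.08 (adjusted p 0.712). Of the 2 that were lower, 1 is peroxisomal. No split between compartments is read from so few genes.

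Acat1 encodes the mitochondrial acetoacetyl-CoA thiolase, which works in ketone body use and isoleucine breakdown as well as at the end of fatty acid oxidation. It read 10.71, 10.66 and 10.65 in db/db+TSF kidneys, 10.75, 10.78 and 10.74 in db/db kidneys and 11.08, 11.00 and 11.03 in db/m kidneys. The arrays formed 3 separate levels with no overlap, lowest in db/db+TSF and highest in db/m kidneys. Acat1 fell by 0.36 in db/db+TSF against db/m kidneys (SE 0.08, adjusted p 0.0335, 1.29-fold). It was lower by 0.28 in db/db against db/m kidneys (SE 0.08, adjusted p 0.129, 1.22-fold) and by 0.08 in db/db+TSF against db/db kidneys (adjusted p 0.716), neither past the threshold.

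The Acat1 call was close to the threshold. With 1 array left out at a time it kept its size (-0.38 to -0.34) and passed without db/db replicate 3 (adjusted p 0.0468). It did not pass without db/db+TSF replicate 1 (adjusted p 0.0678), 2 (0.117) or 3 (0.121), without db/db replicate 1 (0.0561) or 2 (0.0512), or without db/m replicate 1 (0.106), 2 (0.0659) or 3 (0.0513). Against db/m kidneys the db/db value passed with a spread modelled on intensity (adjusted p 0.032) and with a pseudocount of 16 (0.0264).

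Acaa2, the mitochondrial 3-ketoacyl-CoA thiolase, lay on the other side. It read 10.77, 10.71 and 10.76 in db/db+TSF kidneys, 10.78, 10.66 and 10.81 in db/db kidneys and 10.31, 10.40 and 10.53 in db/m kidneys. All 6 db/db+TSF and db/db arrays were above the db/m arrays, while the treated and untreated arrays shared 1 range. The difference from db/m kidneys was 0.33 (SE 0.09) in db/db+TSF kidneys and 0.33 (SE 0.09) in db/db kidneys, with adjusted p of 0.0807 and 0.121. With a spread modelled on intensity both passed, at 0.0268 and 0.0475.

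Hadha, the alpha subunit of the trifunctional protein, read 9.74, 9.72 and 9.73 in db/db+TSF kidneys, 9.72, 9.75 and 9.90 in db/db kidneys and 9.55, 9.56 and 9.61 in db/m kidneys. The lean arrays were lowest without overlap, and the db/db minus db/m difference was 0.22 (SE 0.08, adjusted p 0.287). The probe set of its partner Hadhb, the beta subunit, was dim, with 3.69 to 4.09 over all arrays, close to the array medians of 3.50 to 3.61. Hadh, the medium- and short-chain hydroxyacyl-CoA dehydrogenase, averaged 11.69 in db/db+TSF kidneys, 11.73 in db/db kidneys and 11.65 in db/m kidneys (db/db minus db/m 0.08, adjusted p 0.712). Echs1, the short-chain hydratase, overlapped in all comparisons.

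Ehhadh, the peroxisomal bifunctional enzyme that is a classic PPAR alpha target in liver, read 10.12, 9.88 and 9.84 in db/db+TSF kidneys, 9.78, 9.83 and 10.05 in db/db kidneys and 10.21, 10.33 and 10.37 in db/m kidneys. Every db/db+TSF and db/db array was below every db/m array. The difference from db/m kidneys was -0.36 in db/db+TSF kidneys (SE 0.11, adjusted p 0.117, 1.28-fold) and -0.41 in db/db kidneys (SE 0.11, adjusted p 0.108, 1.33-fold), neither past the threshold. The treated and untreated db/db arrays overlapped (0.06, adjusted p 0.872), and with arrays scaled to a common median that difference turned to -0.000396.

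The second peroxisomal bifunctional enzyme, Hsd17b4, which serves branched chains, averaged 9.11 in db/db+TSF kidneys, 8.98 in db/db kidneys and 8.97 in db/m kidneys. Its db/db+TSF arrays lay above those of both other groups, with differences of 0.13 from db/db kidneys (adjusted p 0.612) and 0.14 from db/m kidneys (adjusted p 0.477). The gap was narrow, with the lowest db/db+TSF array at 9.049 and the highest db/db array at 9.047. The peroxisomal thiolases Acaa1a and Acaa1b are near-identical copies in the mouse, so their probe sets may share signal and the values are uncertain. Acaa1b read 7.30, 7.36 and 6.97 in db/db+TSF kidneys, 7.43, 7.47 and 7.12 in db/db kidneys and 7.38, 7.26 and 7.78 in db/m kidneys, with all groups overlapping. Its db/db+TSF minus db/m difference was -0.26 (adjusted p 0.435), and that of Acaa1a was -0.23 (adjusted p 0.349).

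**Figure D3:**
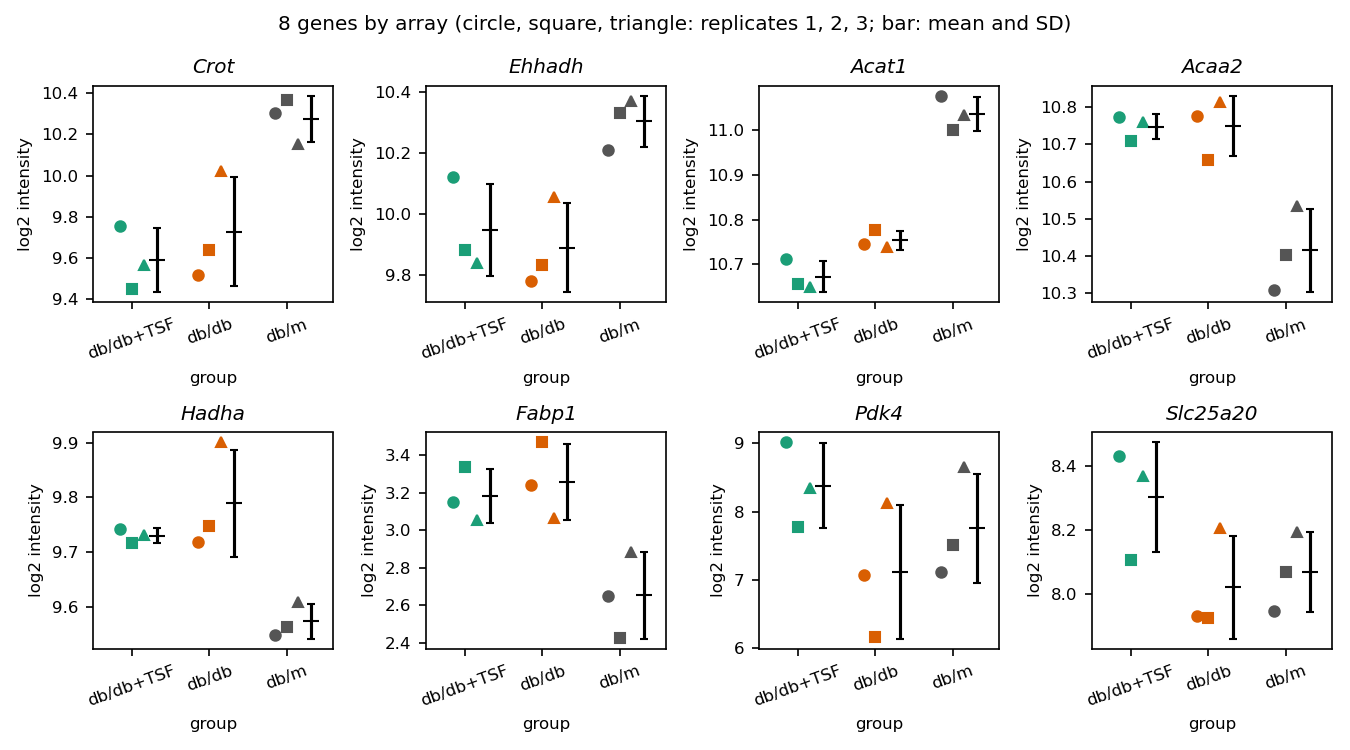
Log2 intensity of 8 genes on each array (circle, square and triangle are replicates 1, 2 and 3; the black bar is mean and SD, n = 3 per group); axes start at different values. Crot, Ehhadh and Acat1 were lower and Acaa2, Hadha and Fabp1 higher in both db/db groups than in db/m kidneys without overlap, while Pdk4 and Slc25a20 overlapped in every comparison.

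The auxiliary enzymes for unsaturated fatty acids (Eci1, Eci2, Decr1, Decr2 and Ech1) differed by -0.01 to 0.09 in db/db against db/m kidneys. None of these 5 genes, and none of the 7 of the first step, was without overlap, against 18.6% of all genes. Decr2, the peroxisomal dienoyl-CoA reductase, averaged 9.74 ± 0.15 in db/db+TSF kidneys, 9.58 ± 0.12 in db/db kidneys and 9.49 ± 0.13 in db/m kidneys (SD, n = 3 each). Its db/db+TSF arrays were above the db/m arrays, by 0.25 (SE 0.11, adjusted p 0.28). The electron transfer genes pass the electrons of the first step to the respiratory chain. Etfdh, the membrane oxidoreductase of the 3, averaged 9.44 ± 0.10 in db/db+TSF kidneys, 9.38 ± 0.09 in db/db kidneys and 9.59 ± 0.07 in db/m kidneys (SD, n = 3 each), and its db/db minus db/m difference of -0.21 did not pass (adjusted p 0.345). Etfa and Etfb, the flavoprotein's subunits, differed by 0.07 and 0.04 in that comparison.

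Pdk4 showed the largest difference under TSF. It encodes the pyruvate dehydrogenase kinase that shuts off glucose-derived acetyl-CoA when fatty acids are burned. It read 9.02, 7.77 and 8.35 in db/db+TSF kidneys, 7.07, 6.16 and 8.13 in db/db kidneys and 7.11, 7.51 and 8.65 in db/m kidneys. The spread within each group was wide, from 0.62 to 0.99 (SD), and all groups overlapped. The db/db+TSF minus db/db difference was 1.26, with a 95% interval of 0.17 to 2.36 (adjusted p 0.382, 2.40-fold), and the db/db minus db/m difference was -0.64 (adjusted p 0.612). Single arrays moved both values. The treatment difference ran from 0.78 without db/db replicate 2 to 1.77 without db/db replicate 3. The db/db minus db/m difference ran from -1.14 without db/db replicate 3 to -0.16 without db/db replicate 2. The db/db+TSF minus db/m difference of 0.63 (adjusted p 0.574) ran from 0.30 without db/m replicate 1 to 1.07 without db/m replicate 3.

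Fabp1, the liver-type fatty acid binding protein, had the smallest p of the set in db/db against db/m kidneys. It read 3.15, 3.34 and 3.06 in db/db+TSF kidneys, 3.24, 3.47 and 3.06 in db/db kidneys and 2.65, 2.42 and 2.89 in db/m kidneys. The lean arrays were lowest without overlap. These values lay below the median of every array and close to the filter of 2.65, so the probe set was dim and its signal may not be separable from background. The difference of db/db from db/m kidneys was 0.60 (SE 0.14, adjusted p 0.0717) and that of db/db+TSF from db/m kidneys 0.53 (adjusted p 0.0723), which passed without db/m replicate 3 (0.64, adjusted p 0.0486). With a pseudocount of 16 in place of 1 the Fabp1 difference from db/m kidneys was 0.18 in db/db+TSF kidneys (adjusted p 0.159) and 0.21 in db/db kidneys (adjusted p 0.162).

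Pex11a, which drives peroxisome division, read 8.49, 8.31 and 8.40 in db/db+TSF kidneys, 8.15, 8.15 and 8.30 in db/db kidneys and 8.01, 8.33 and 8.39 in db/m kidneys. The treated arrays lay just above the db/db arrays (0.20, SE 0.11, adjusted p 0.506) and overlapped the db/m arrays. Acot2, a mitochondrial acyl-CoA thioesterase with a close relative, Acot1, that its probes may also read, averaged 9.09 in db/db+TSF kidneys, 8.90 in db/db kidneys and 8.98 in db/m kidneys (db/db+TSF minus db/db 0.19, adjusted p 0.653).

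The compartments were compared through the mean log2 intensity of their genes on each array, as a description with no test. The mean of the 20 mitochondrial genes was 9.57, 9.33 and 9.42 in db/db+TSF kidneys, 9.35, 9.28 and 9.48 in db/db kidneys and 9.32, 9.38 and 9.53 in db/m kidneys, with overlap throughout. The mean of the 10 peroxisomal genes was 8.73, 8.44 and 8.54 in db/db+TSF kidneys, 8.56, 8.59 and 8.64 in db/db kidneys and 8.64, 8.77 and 8.85 in db/m kidneys. The db/db and db/m values touched at 8.64, and 8 of the 10 peroxisomal genes were below 0 in db/db against db/m kidneys, against 10 of the 20 mitochondrial genes. The median difference was -0.12 for peroxisomal and -0.02 for mitochondrial genes, beside 0.01 over all genes.

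The mitochondrial mean minus the peroxisomal mean cancels shifts shared by all genes of an array. Its size on 1 array carries no meaning, since different probe sets enter it, but the groups can be set side by side. It was 0.837, 0.890 and 0.881 in db/db+TSF kidneys, 0.783, 0.692 and 0.832 in db/db kidneys and 0.679, 0.612 and 0.679 in db/m kidneys. The groups did not overlap, with mean differences of 0.10 for db/db+TSF minus db/db and 0.11 for db/db minus db/m.

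The treatment difference rested on 2 genes, Acox2 with its 1 low treated array and Pdk4 with its wide spread. Without both, an alternative added after the data were seen, the measure ran from 0.727 to 0.869 in db/db+TSF kidneys, 0.777 to 0.889 in db/db kidneys and 0.623 to 0.728 in db/m kidneys. The db/db+TSF minus db/db difference was then -0.02. The db/db and db/m ranges did not overlap, and db/db+TSF replicate 2 met the db/m range. Without Acox2 alone, also added after the data were seen, the measure ran from 0.644 to 0.813 in db/db+TSF kidneys, 0.612 to 0.769 in db/db kidneys and 0.525 to 0.664 in db/m kidneys. Both db/db groups then overlapped the db/m arrays. Without Pdk4 alone, likewise added afterwards, both stayed above the db/m arrays. The measure was then 0.866 to 0.972 in db/db+TSF kidneys, 0.856 to 0.903 in db/db kidneys and 0.711 to 0.795 in db/m kidneys. The separation from db/m kidneys thus also depended on which genes entered the means.

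**Figure D4:**
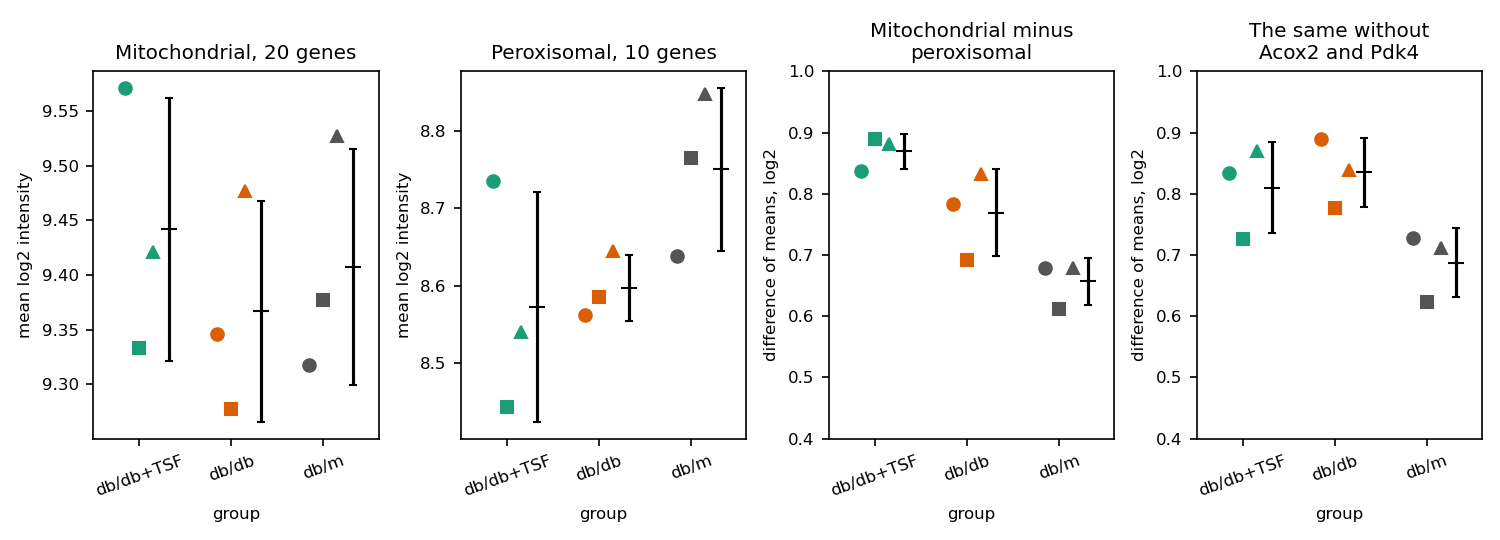
Mean log2 intensity of the 20 mitochondrial and 10 peroxisomal genes on each array, their difference, and that difference without Acox2 and Pdk4 (circle, square and triangle are replicates 1, 2 and 3; the black bar is mean and SD, n = 3 per group); the vertical axes do not start at 0. The difference is lowest in db/m kidneys, and its gap between db/db+TSF and db/db kidneys goes from 0.10 to -0.02 when the 2 genes are left out.

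Members also varied together within groups. Of the 35 genes, 28 were highest in their group on db/db+TSF replicate 1 (80%, against 41.2% of all genes), 20 on db/db replicate 3 (57.1%, against 33.6%) and 21 on db/m replicate 3 (60%, against 40.5%). No member was highest on db/db+TSF replicate 3. The members on an array share RNA and hybridisation, so they are not separate observations of a difference between mice.

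Other genes of the pathways were taken from lists, and several of these passed the threshold in the comparisons with db/m kidneys. Amacr, the racemase that admits branched-chain acids to peroxisomal oxidation, read 9.87, 9.94 and 10.07 in db/db+TSF kidneys, 10.12, 10.18 and 9.93 in db/db kidneys and 10.96, 10.73 and 10.81 in db/m kidneys. Both db/db groups lay well below the lean arrays. Amacr fell by 0.88 in db/db+TSF kidneys (adjusted p 0.0017, 1.84-fold) and by 0.76 in db/db kidneys (adjusted p 0.00726, 1.69-fold) against db/m kidneys. Pecr, a peroxisomal enoyl-CoA reductase, fell by 0.64 in db/db+TSF against db/m kidneys (adjusted p 0.0113), and its db/db minus db/m difference was -0.43 (adjusted p 0.0895). These were the only genes of the other peroxisomal list to pass, 1 of 19 in db/db against db/m and 2 of 19 in db/db+TSF against db/m kidneys, where 1.05% and 3.13% of all genes passed. The list's median was -0.10 in db/db against db/m kidneys, with 14 of 19 below 0. All 3 calls held with each array left out in turn.

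Of the other mitochondrial list 1 of 21 genes passed in db/db against db/m kidneys and 5 of 21 in db/db+TSF against db/m kidneys, 3 higher and 2 lower in the second, beside 1.05% and 3.13% of all genes. Acsf2, a mitochondrial acyl-CoA synthetase, averaged 7.29 ± 0.20 in db/db+TSF kidneys, 7.07 ± 0.11 in db/db kidneys and 6.13 ± 0.29 in db/m kidneys (SD, n = 3 each). It rose by 1.15 in db/db+TSF kidneys (adjusted p 0.00287) and by 0.94 in db/db kidneys (adjusted p 0.0147) against db/m kidneys. In db/db+TSF against db/m kidneys Acsl4, which prefers arachidonic acid, rose by 0.66 (adjusted p 0.0143) and Acss1, the mitochondrial acetyl-CoA synthetase, by 0.48 (adjusted p 0.0271). Mlycd, which removes the Cpt1a inhibitor malonyl-CoA, fell by 0.51 (adjusted p 0.046), and Acad9, a dehydrogenase relative that helps assemble respiratory complex I, fell by 0.42 (adjusted p 0.0465).

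Leaving out 1 array ended several of these calls. The db/db against db/m call of Acsf2 was lost without db/db replicate 1 (adjusted p 0.0597) or 3 (0.0641) or db/m replicate 1 (0.0619). The db/db+TSF against db/m call of Acsl4 was lost without db/db+TSF replicate 2 (0.0617) or db/m replicate 1 (0.0553). Acss1 was lost without db/db+TSF replicate 1 (0.0541), 2 (0.108) or 3 (0.0649) or db/m replicate 1 (0.0844) or 2 (0.0698). Mlycd was lost in every such fit but the one without db/m replicate 1, with adjusted p up to 0.155 without db/db+TSF replicate 3, and Acad9 in every one but that without db/db+TSF replicate 1, with adjusted p up to 0.175 without db/db+TSF replicate 3.

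**Figure D5:**
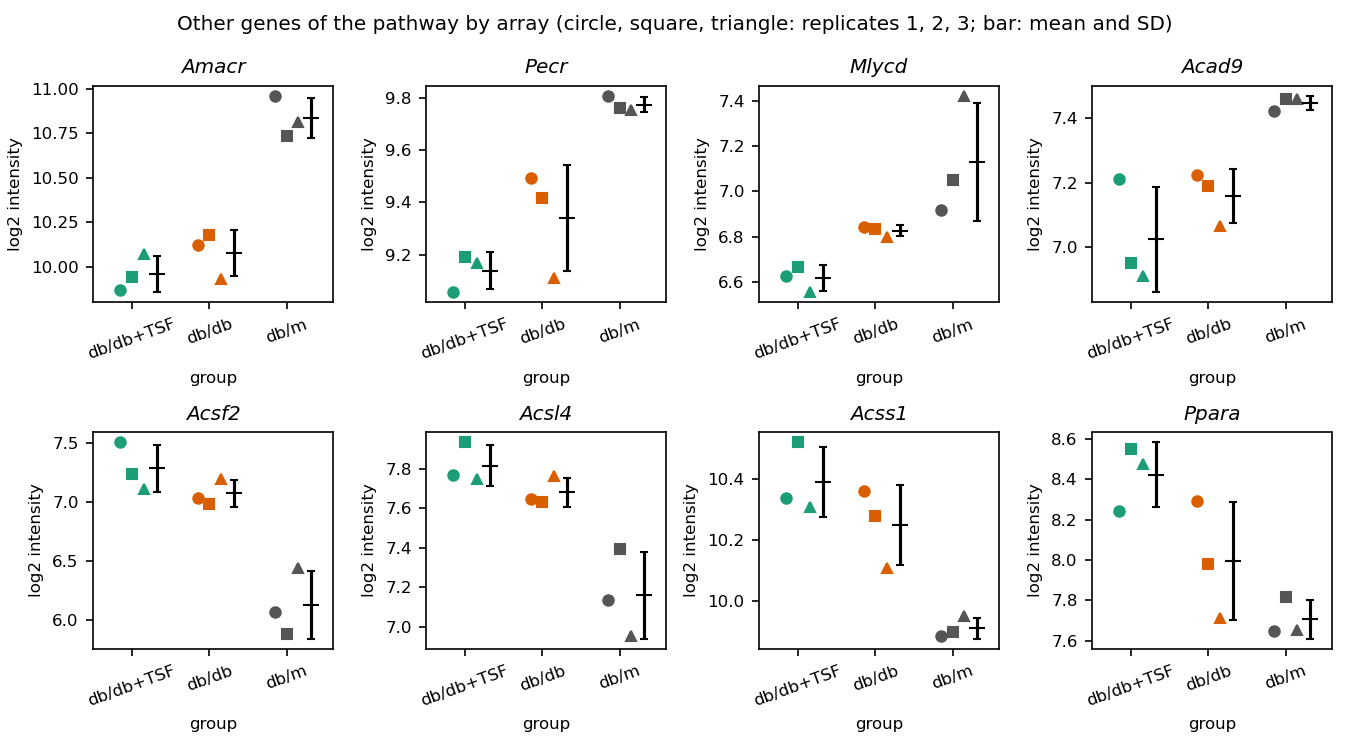
Log2 intensity on each array of the 7 other fatty acid oxidation genes that passed the threshold in db/db+TSF against db/m kidneys and of Ppara (circle, square and triangle are replicates 1, 2 and 3; the black bar is mean and SD, n = 3 per group); axes start at different values. Amacr, Pecr, Mlycd and Acad9 are lower, and Acsf2, Acsl4 and Acss1 higher, in both db/db groups than in db/m kidneys without overlap.

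Among the 19 regulators tested, Ppara, the receptor gene itself, read 8.24, 8.55 and 8.47 in db/db+TSF kidneys, 8.29, 7.98 and 7.71 in db/db kidneys and 7.65, 7.82 and 7.65 in db/m kidneys. The treated arrays were above the lean ones, with db/db arrays overlapping both. Ppara rose by 0.72 in db/db+TSF against db/m kidneys (adjusted p 0.0239) and differed by 0.43 between db/db+TSF and db/db kidneys (adjusted p 0.317). The rise no longer passed without db/db+TSF replicate 2 (0.0916) or 3 (0.0898) or db/m replicate 1 (0.0806) or 3 (0.0665). It was the 1 regulator of 19 to pass in db/db+TSF against db/m kidneys (3.13% of all genes), none passed in the other comparisons, and the one of smallest p in db/db against db/m kidneys was Nrip1, a corepressor (0.35, adjusted p 0.0936).

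The other PPAR alpha targets moved in both directions. In db/db against db/m kidneys 3 of 19 passed (1.05% of all genes): Cyp4a14, a fatty acid omega-hydroxylase, rose by 0.89 (adjusted p 0.0101), while Cd36, the fatty acid uptake receptor, fell by 2.04 (adjusted p 0.0084) and Aldh3a2, the fatty aldehyde dehydrogenase, fell by 0.51 (adjusted p 0.0233). In db/db+TSF against db/m kidneys, where 3.13% of all genes passed, 4 of 19 did: the same 3, Cyp4a14 at 0.99, Cd36 at -2.99 and Aldh3a2 at -0.48, and Cyp4a12a fell by 1.06 (adjusted p 0.0156). Close relatives of the Cyp4a genes may share their probes. Cyp4a12b, of the same list, went the other way from Cyp4a12a without passing. Its difference from db/m kidneys was 0.42 in db/db+TSF kidneys (adjusted p 0.453) and 0.57 in db/db kidneys (adjusted p 0.36). Angptl4, which inhibits lipoprotein lipase, read 9.45, 8.82 and 9.22 in db/db+TSF kidneys, 8.07, 7.53 and 8.80 in db/db kidneys and 8.52, 9.04 and 9.21 in db/m kidneys. All treated arrays were above all db/db arrays, by 1.03 on average, without passing (adjusted p 0.284).

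Of those calls, Cd36 and Cyp4a14 held with each array left out in turn. Aldh3a2 in db/db against db/m kidneys was lost without any 1 of the db/db arrays (adjusted p 0.0512 to 0.0911) and without db/m replicate 2 (0.0704) or 3 (0.0624). Its db/db+TSF against db/m call was lost without any 1 of the db/db+TSF arrays (0.0518 to 0.0687) and without db/m replicate 2 (0.0554). Cyp4a12a was lost without db/db+TSF replicate 1 (0.0515) or 2 (0.0527) or db/m replicate 1 (0.067) or 3 (0.0513).

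Pdk4 has 3 sister kinases, of which 2 passed in both comparisons with db/m kidneys, the only ones of the 12 pyruvate dehydrogenase genes tested (3.13% of all genes passed for db/db+TSF and 1.05% for db/db kidneys). Pdk1 read 7.04, 6.92 and 6.97 in db/db+TSF kidneys, 6.92, 6.79 and 7.31 in db/db kidneys and 6.06, 6.18 and 5.81 in db/m kidneys. It stood well above the lean level on all 6 db/db+TSF and db/db arrays and rose by 0.96 (adjusted p 0.00557) in db/db+TSF and by 0.99 (adjusted p 0.00794) in db/db kidneys against db/m kidneys. Pdk3 fell by 0.61 (adjusted p 0.0267) and 0.60 (adjusted p 0.048) in the same order. The db/db against db/m call of Pdk3 passed only without db/db+TSF replicate 2 and was lost in the other 8 fits with 1 array left out, with adjusted p up to 0.151 without db/db replicate 3. Its db/db+TSF against db/m call was lost without db/db+TSF replicate 2 (0.099) or 3 (0.0617) or db/m replicate 1 (0.0846), while the Pdk1 calls held in all 9. With the mean of the gene's probe sets the Pdk1 difference from db/m kidneys was 0.53 in db/db+TSF kidneys (adjusted p 0.0347) and 0.60 in db/db kidneys (adjusted p 0.034). Pdk2 had the smallest p of the 12 pyruvate dehydrogenase genes tested in db/db+TSF against db/db kidneys, with a difference of 0.20 (adjusted p 0.466).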

How the data were processed

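RNA of 9 mouse kidneys was measured on Affymetrix arrays. The deposited values are intensity values on a linear scale, 1 per probe set and array, made by the authors with Affymetrix Expression Console and Transcriptome Analysis Console, per the submitters' processing notes; no source used here gives the settings of background correction and normalization. From them log2(intensity + 1) was computed. Probe sets with 1 gene symbol were kept (23521 of 41345; 1814 had several), and the one with the highest mean stood for its gene. Genes under the 30th percentile of all probe set means (2.65 on the log2 scale) were left out. limma 3.58.1 in R 4.3.3 (lmFit, eBayes) fitted 1 mean per group over all 9 arrays, with Benjamini-Hochberg adjustment over 17740 genes and a threshold of 0.05; it was tested on simulated data. Per-array values were given for genes past the threshold, for the 3 of smallest p in each comparison and for Cpt1a, Acadm, Ehhadh, Acaa1b, Pdk4 and Fabp1; those of Acaa2, Hadha and Acox2 were added after their values were seen. Of other lists, genes past the threshold or of smallest p were named; which of them have per-array values, and Slc7a13, were chosen after the values were seen. The members and lists were chosen with earlier results of these data known. Alternatives changed the filter, pseudocount, scaling, probe set rule, spread model, groups fitted, replicate block and arrays. No detection calls were used. Precision is limited by the number of arrays. No 2 arrays were copies (3 to 70 identical values per pair).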

Additional observations from a re-analysis of the deposited data

How the results depend on the processing

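The fits differ by 1 choice at a time. Members past the threshold in db/db+TSF against db/db kidneys numbered 0 under each setting run. In db/db against db/m kidneys the count of 0 became 2 with an intensity trend in the spread and 1 with a pseudocount of 16, and lay between 0 and 1 with 1 array left out. In db/db+TSF against db/m kidneys the count of 2 became 1 with only the 2 groups fitted, 3 with the trend and 3 with a pseudocount of 16, and lay between 0 and 2 with 1 array left out. Over all genes, leaving out 1 array gave 72 to 194 calls in db/db against db/m kidneys (187 in full) and 213 to 563 in db/db+TSF against db/m kidneys (556 in full). The first count was at most 122 without any 1 of the db/db or db/m arrays or db/db+TSF replicate 3, and the second at most 370 without db/db+TSF replicate 2 or 3 or db/m replicate 1 or 2. The count of members in db/db+TSF against db/m kidneys was 0 without any of these 4 arrays, and that in db/db against db/m kidneys was 1 (Crot) without db/db replicate 3. With the replicate number as a block, members past the threshold in db/db+TSF against db/m kidneys numbered 1 (Crot, adjusted p 0.048; Acat1, 0.0721), and over all genes 137 passed in db/db against db/m kidneys and 434 in db/db+TSF against db/m kidneys. The replicate numbers showed no sign of pairing: deviations of same-numbered arrays correlated at -0.0791 to 0.146 and those of other arrays at -0.164 to 0.156. With 3 arrays per group these correlations cannot exclude a pairing.

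The mitochondrial minus peroxisomal difference between db/db+TSF and db/db kidneys was 0.0375 without Acox2, 0.0376 without Pdk4 and -0.0250 without both, and that between db/db+TSF and db/m kidneys was 0.15 without Acox2 and 0.12 without both; these were chosen after seeing the data. Small differences changed sign. Cpt1a in db/db+TSF against db/m kidneys was -0.0140 with median scaling and -0.00107 with quantile normalization, and Ehhadh in db/db+TSF against db/db kidneys was -0.000396 with median scaling. With 1 array left out, the Cpt1a value ran from -0.00191 (without db/db+TSF replicate 2) to 0.0543. The db/db against db/m values ran from -0.242 to 0.0160 for Acaa1b, from -0.166 to 0.0249 for Pex11a and from -0.142 to 0.0136 for Slc25a20 (each highest without db/m replicate 3), and from -0.135 to 0.0118 for Acadm (highest without db/m replicate 1). The db/db+TSF against db/db values ran from -0.244 to 0.0106 for Crot (highest without db/db replicate 3), from -0.0274 (without db/db+TSF replicate 1) to 0.142 for Ehhadh and from -0.174 to 0.0284 for Fabp1 (highest without db/db replicate 2). The calls of Acad9, Mlycd, Pdk3, Aldh3a2 and Acat1 were also lost under some of the other settings, with adjusted p up to 0.0941 (Mlycd with only the 2 groups fitted). The causes were not tested. Dim probe sets (Fabp1, Hadhb) limit what can be read at low intensity, and Fabp1 has no value under the filter at the 50th percentile.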

Other observations

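The steps that follow fatty acid oxidation had no gene past the threshold in any of the 3 comparisons. All genes passed at 1.05% in db/db against db/m, 0% in db/db+TSF against db/db and 3.13% in db/db+TSF against db/m kidneys. Of 24 respiratory chain and ATP synthase genes, 19 were above 0 in db/db against db/m kidneys (median 0.06) and 17 in db/db+TSF against db/m kidneys (median 0.06), where Cox5b had the smallest p (0.64, adjusted p 0.0511). Of 12 citrate cycle genes, 10 were above 0 in db/db against db/m kidneys, with Idh3a at 0.33 (adjusted p 0.185), and 11 in db/db+TSF against db/m kidneys. All 5 ketone body genes tested were below 0 in both comparisons with db/m kidneys. Bdh1, which interconverts the main ketone bodies, read 7.35, 6.06 and 7.33 in db/db+TSF kidneys, 7.37, 7.17 and 7.35 in db/db kidneys and 8.07, 7.79 and 8.16 in db/m kidneys. Its db/db+TSF minus db/m difference was -1.09 (adjusted p 0.0637), and db/db+TSF replicate 2 was the lowest array, as for Acox2.

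Peroxisome biogenesis genes gave no call either, with 10 of 12 below 0 in db/db+TSF against db/m kidneys (median -0.09) and Pex14 of smallest p (-0.26, adjusted p 0.194). In db/db against db/m kidneys 7 of 12 were below 0, with Pex11g at -0.35 (adjusted p 0.181). In db/db+TSF against db/db kidneys, where Pex11a was higher, 9 of these 12 were below 0 (median -0.09), beside 56.1% of all genes. The arrays did not overlap for 3 of the 12, all lower (25%), against 20.1% of all genes (7.81% higher and 12.3% lower).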
